A study of Mus musculus with 30 samples.

Results

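Transcripts of the gp130 cytokine pathway were measured by total RNA sequencing of mouse cardiac myocytes, and 7 genes of the pathway are described here. They are the receptors Osmr, Lifr and Il6ra, the shared receptor subunit Il6st (which encodes gp130), the ligand Lif, the transcription factor Stat3 and its feedback inhibitor Socs3. They were chosen by gene symbol, and each symbol matched 1 of the 52550 genes of the deposited count table. Of the 7 genes, 6 passed a filter on low counts together with 15587 genes in all, and Lif did not. Libraries were made from Myh6-Cre:DspW/F mice (heterozygotes in what follows) and from wild-type mice. Both genotypes were sampled at 6 months with the label of 3 months post endurance treadmill exercise (called exercised here), at 6 months with regular activity, and in younger mice at 3 months, also of regular activity. Each of the 6 groups held 5 libraries, 30 in all. The Myh6 promoter drives Cre in cardiac myocytes, to which recombination is thereby directed. The floxed gene, Dsp, encodes desmoplakin, the desmosomal protein that anchors intermediate filaments. It is not stated in the labels whether wild-type mice carried Cre, whether replicates were separate animals, or whether 3 months is the length of the training or the time since it. The p-values measure the spread between these libraries.

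Cytokines of the interleukin-6 family bind a receptor of their own, which pairs with gp130 and activates Janus kinases bound to the receptor tails. The kinases phosphorylate Stat3, which enters the nucleus and raises transcription of targets that include Socs3. Socs3 protein binds gp130 and the kinases and shuts the signal down, so that its transcript is widely read as a trace of recent signalling. In the heart this pathway is known for growth and survival signalling in myocytes and, through the oncostatin M receptor encoded by Osmr, for changes in the shape and maturity of myocytes under stress.

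In these libraries Socs3 was about 3-fold lower in exercised mice than in mice with regular activity, in both genotypes, and the exercised and regular-activity libraries did not overlap. Il6st was 1.27-fold higher in exercised wild types than in wild types with regular activity. In the edgeR fit of all libraries no member passed the test between heterozygotes and wild types or between 6 and 3 months. At an unadjusted p under 0.05 there was 1 of 6 between genotypes in exercised mice (Stat3), 2 at 6 months (Osmr and Lifr) and 0 at 3 months. Of all 15587 genes, 1525, 1370 and 1722 were under that p, in the same order. Between ages there was 1 member in heterozygotes (Osmr) and 0 in wild types, where 3052 and 1908 of all genes were under that p. Osmr came nearest, with 2.13-fold more in heterozygotes than in wild types at 6 months with regular activity and 2.60-fold more in heterozygotes at 6 months than at 3 months. Its highest libraries were also high in transcripts of other cell types. Levels are given in CPM, read counts scaled to a common library size by the TMM method of edgeR, and differences as the log2 ratio of 2 groups with its standard error (SE). A gene is called at a Benjamini-Hochberg adjusted p under 0.05 over all 15587 genes. The genotype, exercise and age comparisons share the groups at 6 months with regular activity, so they are not independent of each other.

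Libraries held 11232143 to 23710331 counts. The summed level of 14 ventricular myocyte markers was 73200 to 118000 CPM, against 335 to 1820 CPM for 12 endothelial, 164 to 1170 for 12 fibroblast, 872 to 1660 for 8 pericyte and smooth muscle, 14.2 to 137 for 12 macrophage and 0.138 to 33.9 for 11 neutrophil and lymphocyte markers. A large part of the pericyte and smooth muscle sum came from Abcc9, which averaged 517 to 647 CPM per group. The cell types that Abcc9 transcripts came from were not tested. Dsp, whose count over the whole gene still includes a recombined allele outside its deleted stretch, ranged over 705.2 to 938.9 CPM in exercised heterozygotes and 928.1 to 1907 CPM in exercised wild types. It ranged over 581.1 to 679.8 CPM in heterozygotes and 635.8 to 1021 CPM in wild types at 6 months with regular activity, and over 573 to 1126 CPM in heterozygotes and 752.3 to 1299 CPM in wild types at 3 months, where the library labelled heterozygote 3 held the 1126. Transcripts of the mitochondrial genome took 20.8% to 46.9% of counts in exercised libraries, 11.7% to 26.7% at 6 months with regular activity and 8.9% to 15.4% at 3 months. The table holds a value for 0 of 23 spike-in controls in exercised libraries, for 11 to 18 at 6 months with regular activity and for 3 at 3 months. Separate handling of the sets of libraries and exercise or age therefore cannot be told apart. Of the libraries, 3 held both Xist and Y-linked transcripts (wild types 2 and 5 at 6 months with regular activity and wild type 4 at 3 months), and calls that end without them are given with that value. Exercised heterozygote 4 and exercised wild type 5 held 101 to 223 CPM of Xist and at most 0.266 CPM of Y-linked transcripts. So did heterozygotes 2 and 4 at 6 months with regular activity. At 3 months heterozygotes 1 to 3 and wild types 2 and 3 did too. The remaining unmixed libraries held Y-linked transcripts and at most 1.25 CPM of Xist. The sexes were thus unevenly spread over the groups, and the part of sex was not tested. Small noncoding RNA genes took 0.484% to 1.09% of counts in exercised libraries, 1.19% to 1.8% at 6 months with regular activity and 2.12% to 4.54% at 3 months, where heterozygotes 1 and 2 had the highest shares. In bulk RNA, fewer cells of a type and less RNA per cell cannot be told apart.

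Levels of different genes were compared per exonic length, as CPM per kilobase of annotated exon (FPKM). Stat3 averaged 16.6 to 21.9 FPKM and Il6st 16.5 to 22.8 FPKM over the 6 groups, and Lifr averaged 6.95 to 10.5 FPKM. Socs3 was close to Stat3 and Il6st at 3 months (18.2 FPKM in heterozygotes and 20.6 FPKM in wild types), and it averaged 5.07 FPKM in exercised heterozygotes and 3.95 FPKM in exercised wild types. Osmr averaged 0.53 to 1.48 FPKM, Il6ra 0.0456 to 0.101 FPKM and Lif 0.0284 to 0.0968 FPKM. The signal transducer and the shared subunit were thus the most abundant members in the exercised groups, and Il6ra and Lif had the fewest counts. Lif had 0 to 14 counts and Il6ra 1 to 35 counts in a library.

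**Figure D1:**
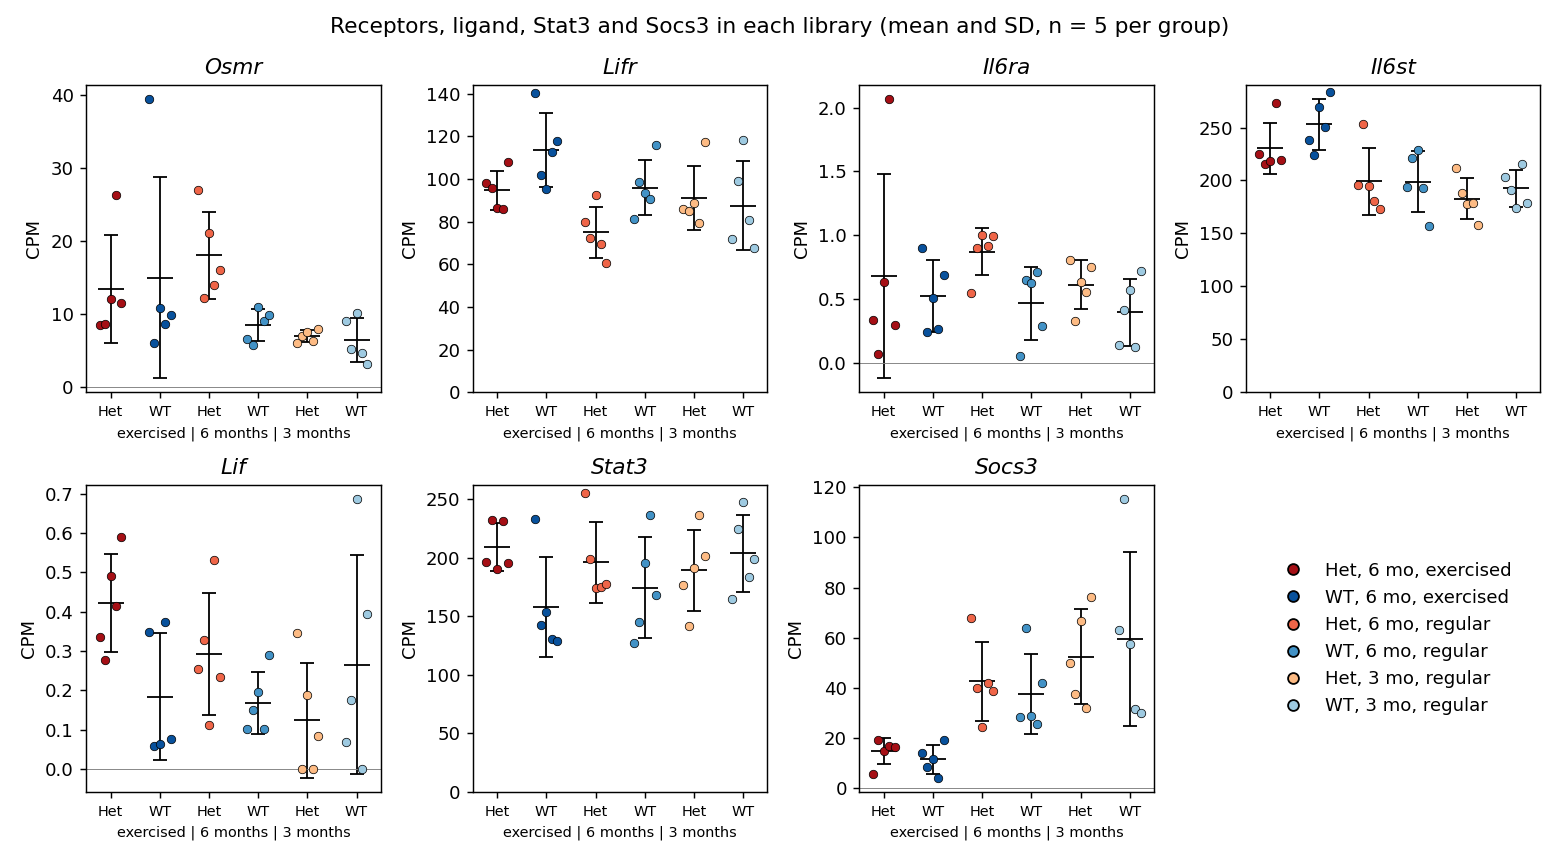
Level of each of the 7 genes in CPM (vertical axis, linear) in every library; points are libraries, bars are the mean and SD of 5 libraries, and groups run from exercised to 6 months regular activity to 3 months with heterozygotes left of wild types. Socs3 lies at 3.996 to 19.22 CPM in the exercised libraries and at 24.39 CPM or above in all others, and single high libraries stand out for Osmr in both exercised groups.

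Il6st (ENSMUSG00000021756, GRCm38 chromosome 13, 112464070 to 112510086, plus strand) encodes the subunit that all receptors of the family share. Its coefficient of variation within groups was 8.99% to 15.8%. Exercised wild types had 238.1, 223.8, 269.8, 250.8 and 283.9 CPM, against 194, 221.7, 229.2, 192.5 and 156.8 CPM in wild types with regular activity. Only the lowest exercised library fell within the regular-activity range, between its 2 highest libraries. The difference was called (253 ± 24.1 against 199 ± 28.6 CPM, SD, n = 5 each, 1.27-fold, log2 ratio 0.35, SE 0.11, 8 of 10 libraries on the side of the midpoint where their group lies, edgeR adjusted p = 0.0394). In this comparison 9.69% of all genes tested were called (4.64% higher and 5.05% lower), and 2 of the 6 members tested were called, Il6st higher and Socs3 lower. The call was lost without exercised wild type 3 (edgeR adjusted p = 0.0799), 4 (0.052) or 5 (0.0959). It was also lost without wild type 1 (0.077), 4 (0.0858) or 5 (0.146) with regular activity, and without libraries 2 and 5 of that group together (0.191).

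Exercised heterozygotes had 224.9, 215.5, 218.4, 273.3 and 219.3 CPM of Il6st, against 195.7, 253, 195.1, 180.5 and 172.7 CPM in heterozygotes with regular activity. The direction was the same as in wild types, but the groups overlapped through heterozygote 2 with regular activity, and the difference was not called (230 ± 24.3 against 199 ± 31.5 CPM, log2 ratio 0.21, SE 0.11, edgeR adjusted p = 0.272). The exercise effects of both genotypes differed by -0.14 (heterozygote minus wild type, 95% interval -0.46 to 0.18). Between genotypes, the log2 ratio of Il6st was -0.14 in exercised mice, 0.00 at 6 months and -0.07 at 3 months, with 95% intervals within -0.37 to 0.23.

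Osmr (ENSMUSG00000022146, chromosome 15, 6813577 to 6874969, minus strand) encodes the subunit that pairs with gp130 to bind oncostatin M. At 6 months with regular activity, heterozygotes had 26.93, 12.17, 21.01, 13.88 and 15.94 CPM, against 6.589, 5.719, 10.91, 9.006 and 9.834 CPM in wild types. Every heterozygote lay above every wild type, and the mean was 2.13-fold higher (18.0 ± 6.0 against 8.41 ± 2.19 CPM, SD, n = 5 each, log2 ratio 1.09, SE 0.407, 95% interval 0.25 to 1.93, 9 of 10 libraries on their own side of the midpoint). Over all genes it was not called (edgeR adjusted p = 0.41). This comparison called 0.135% of the genes tested (0.0321% higher and 0.103% lower) and 0 of the 6 members. Osmr was called when the spread was estimated from these 10 libraries alone (log2 ratio 1.12, edgeR adjusted p = 0.0327). It was also called by limma-voom with quality weights (1.05, adjusted p = 0.0227), and not by DESeq2 (1.13, adjusted p = 0.289). Over all genes the main fit called 21, DESeq2 62 and the alternatives 4 to 476.

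Heterozygotes at 3 months had 6.036, 6.886, 7.559, 6.193 and 7.924 CPM of Osmr, all below the 12.17 to 26.93 CPM at 6 months. The difference between 6 and 3 months in heterozygotes was 2.60-fold (log2 ratio 1.38, SE 0.415, 9 of 10 libraries on their side, edgeR adjusted p = 0.0601). In this comparison 3.43% of all genes (1.46% higher and 1.96% lower) and 0 of the 6 members were called. Osmr passed the threshold with only the groups compared (1.41, edgeR adjusted p = 0.00225), with DESeq2 (1.41, adjusted p = 0.0198) and with limma-voom (1.33, adjusted p = 0.00711). It also passed when heterozygote 2 at 6 months was left out of the edgeR fit (1.49, adjusted p = 0.0493). Over all genes the main fit called 534, DESeq2 982 and the alternatives 181 to 1367. Wild types at 3 months had 8.973, 5.171, 10.14, 4.665 and 3.145 CPM, and their 6-month group overlapped this range (log2 ratio 0.39, SE 0.414, edgeR adjusted p = 0.764, in a comparison that called 0.86% of genes, 0.398% higher and 0.462% lower, and 0 members). The age effects of both genotypes differed by 0.99 (SE 0.583, edgeR adjusted p = 0.688), a difference that was not called, and 0 genes in all were called for this interaction by edgeR, with 1253 at an unadjusted p under 0.05 and 25 called by DESeq2.

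Exercised heterozygotes had 8.456, 8.642, 11.96, 26.25 and 11.52 CPM of Osmr, against 39.42, 6.042, 10.8, 8.632 and 9.853 CPM in exercised wild types. In each group 4 libraries lay between 6.042 and 11.96 CPM, and heterozygote 4 and wild type 1 stood far above them. The genotype difference was -0.15 (SE 0.405, edgeR adjusted p = 0.958, with 0.404% of genes called, 0.225% higher and 0.18% lower, and 0 members), with opposite signs when either high library was left out. It was -0.55 without exercised heterozygote 4 (edgeR adjusted p = 0.869) and 0.59 without exercised wild type 1 (0.494). The 95% interval of the main value, -0.99 to 0.69, includes a change of either sign.

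With exercise, Osmr changed by -0.42 in heterozygotes (SE 0.403, edgeR adjusted p = 0.608) and by 0.82 in wild types (SE 0.408, edgeR adjusted p = 0.23). In an alternative chosen after seeing the data, without heterozygote 4 and wild type 1, the exercised libraries with the most macrophage marker transcripts of their genotype, the values were -0.85 (edgeR adjusted p = 0.0362, called) and 0.06 (0.934). The exercise effect in heterozygotes minus that in wild types was -1.25 (SE 0.573, edgeR adjusted p = 0.989, 95% interval -2.43 to -0.07), in a test that called 0.0128% of all genes and 0 members. Without exercised wild type 1 this value was -0.53, and without exercised heterozygote 4 it was -1.65 (edgeR adjusted p = 0.533).

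Transcripts of other cell types were higher in some comparisons and libraries in which Osmr was higher, but not in all. The 12 macrophage markers summed to 55.8 to 111 CPM in heterozygotes at 6 months with regular activity and to 19.7 to 37.3 CPM in wild types of that age, and all 11 tested markers were on average higher in heterozygotes (median log2 difference 1.40, against -0.003 over all genes). Of these 11, edgeR and DESeq2 called 0, limma-voom called 7, and 9 had an unadjusted edgeR p under 0.05. Of all 15587 genes 1370 had such a p, and the alternatives called at most 476 genes in this comparison. The 12 fibroblast markers summed to 536 to 902 CPM in these heterozygotes and 387 to 528 CPM in these wild types, and the 12 endothelial markers to 542 to 1160 CPM in heterozygotes and 496 to 731 CPM in wild types. A large part of the fibroblast sum came from Gsn, at 243 CPM on average in heterozygotes and 188 CPM in wild types. On average 11 fibroblast markers were higher in heterozygotes, and Fbln1 was lower (27.7 against 52.6 CPM, log2 ratio -0.93, edgeR adjusted p = 0.368). Of the 12 endothelial markers 0 were called by edgeR, DESeq2 or limma-voom, and 0 had an unadjusted edgeR p under 0.05. Of the 12 fibroblast markers edgeR called 0, DESeq2 1 and limma-voom 5. The 14 ventricular myocyte markers summed to 73200 to 95900 CPM in heterozygotes and 82200 to 101000 CPM in wild types. In heterozygotes, 4 of 11 tested macrophage, 5 of 12 fibroblast and 4 of 12 endothelial markers were called higher by edgeR at 6 than at 3 months, and 2 of 14 ventricular myocyte markers lower. In the exercised groups the macrophage sum was 137 CPM in heterozygote 4 and 18.3 to 35.7 CPM in the other heterozygotes, and 65 CPM in wild type 1 and 14.2 to 32.8 CPM in the other wild types. Wild type 1 also had the highest pericyte and smooth muscle sum of all libraries (1658 CPM), a sum in which Abcc9 has the highest group means. In other comparisons the lists did not all follow Osmr. With exercise in wild types Osmr was 0.82, while 11 of 12 fibroblast markers were lower (median -0.29) and the macrophage median was 0.03. Between genotypes in exercised mice Osmr was -0.15, while 12 of 12 fibroblast (0.33) and 10 of 11 macrophage markers (0.63) were higher. At 3 months it was 0.10, with 12 of 12 endothelial markers lower (-0.53). The part of these other transcripts in the Osmr differences was not tested.

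As a description over the 30 libraries, deviations of Osmr from its group means had a Pearson r of 0.81 with the mean deviation of the pericyte and smooth muscle markers (Spearman rho 0.71), 0.69 with endothelial (0.51) and -0.63 with ventricular myocyte markers (-0.44). For macrophage markers r was 0.61 and rho 0.35, and for fibroblast markers r was 0.60 and rho 0.29. By rank, Il6ra had higher values with these last lists than Osmr (rho 0.52 with macrophage and 0.56 with fibroblast markers). The points share their library, so anything that sets the mix of cells in a library enters both axes. For the other tested members the Pearson values with these 5 lists lay between -0.38 and 0.61, and for Il6st between -0.08 and 0.29. Likeness was ranked over 10473 genes that had established symbols and averaged at least 1 in log2 CPM. The genes whose levels were most like Osmr over the 30 libraries were Entpd1 (Pearson r 0.921), which encodes the ectoenzyme CD39 of endothelial and immune cells, Gcnt2 (0.90), Heg1 (0.869), an endothelial receptor, Atl3 (0.863) and Sptlc2 (0.86). On deviations from group means Flna, encoding the actin crosslinker filamin A, was closest (0.919).

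**Figure D2:**
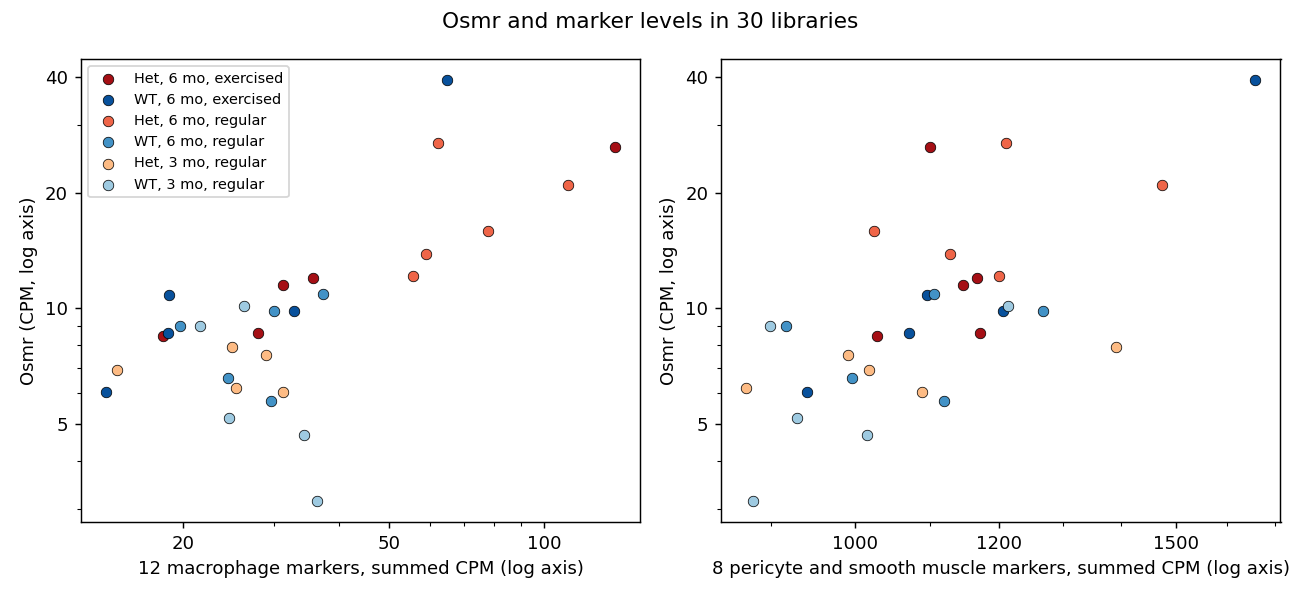
Osmr (CPM, log axis, vertical) against the summed CPM of 12 macrophage markers (left, log axis) and of 8 pericyte and smooth muscle markers (right, log axis); each point is a library, coloured by group. The 3 libraries highest in Osmr (39.42, 26.93 and 26.25 CPM) have macrophage sums of 65, 62.4 and 137 CPM, and exercised wild type 1 also has the highest pericyte and smooth muscle sum. Abcc9 makes up a large part of the sum on the right (517 to 647 CPM on average per group).

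Lifr (ENSMUSG00000054263, chromosome 15, 7090614 to 7197489, plus strand) encodes the receptor that pairs with gp130 to bind leukemia inhibitory factor and cardiotrophin-1. At 6 months with regular activity, heterozygotes had 79.68, 72.41, 92.42, 69.37 and 60.73 CPM, against 81.18, 98.46, 93.4, 90.57 and 115.8 CPM in wild types. The heterozygote mean was lower, with an overlap through heterozygote 3, and it was not called (74.9 ± 11.9 against 95.9 ± 12.8 CPM, SD, n = 5 each, log2 ratio -0.36, SE 0.139, 8 of 10 libraries on their side, edgeR adjusted p = 0.423). In exercised mice the difference was -0.26 (94.7 ± 9.18 against 113 ± 17.3 CPM, SE 0.139, edgeR adjusted p = 0.565), and at 3 months 0.06 (91.2 ± 15 against 87.5 ± 21.0 CPM, edgeR adjusted p = 0.917). At 3 months 0.192% of genes (0.167% higher and 0.0257% lower) and 0 members were called between genotypes.

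Exercised heterozygotes, with 98.04, 95.61, 86.22, 85.73 and 107.8 CPM of Lifr, lay above all heterozygotes with regular activity except number 3 at 92.42 CPM. That difference had a log2 ratio of 0.34 (SE 0.139, 9 of 10 libraries on their side, edgeR adjusted p = 0.132), and limma-voom called it (0.38, adjusted p = 0.0205). In wild types the exercise value was 0.24 (SE 0.139, edgeR adjusted p = 0.312), and the effects of both genotypes differed by 0.10 (95% interval -0.30 to 0.50). In heterozygotes at 6 months with regular activity, Osmr lay above and Lifr below wild type, without a call for either in the edgeR fit of all libraries.

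Il6ra (ENSMUSG00000027947, chromosome 3, 89864059 to 89913196, minus strand) encodes the interleukin-6 receptor, known best from hepatocytes and leukocytes. Its highest group mean was 0.870 ± 0.185 CPM in heterozygotes at 6 months with regular activity, and its lowest 0.394 ± 0.263 CPM in wild types at 3 months. The mean was higher in heterozygotes than in wild types at all 3 sampling points (log2 ratio 0.42, SE 0.652, in exercised mice, 0.89, SE 0.633, at 6 months and 0.63, SE 0.662, at 3 months), with overlapping libraries and 95% intervals that span 0. In exercised mice the sign rested on heterozygote 4, without which the value was -0.62 (edgeR adjusted p = 0.937), and the medians were 0.3349 CPM in heterozygotes and 0.5082 CPM in wild types. No comparison of Il6ra was called (edgeR adjusted p of 0.735 to 0.999), and the 95% interval between genotypes at 6 months with regular activity ran from -0.42 to 2.20. In the annotation, 242 exonic bases of Il6ra overlap a gene on the other strand, Gm42809, and the strand setting of the counting is not given in the sources used here.

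Lif (ENSMUSG00000034394, chromosome 11, 4257557 to 4272514, plus strand), the only ligand among the members, had 30 counts in all in exercised heterozygotes, 15 in exercised wild types, 34 in heterozygotes and 18 in wild types at 6 months with regular activity, and 13 in heterozygotes and 22 in wild types at 3 months. These sums are over 5 libraries a group and limit any comparison. In an edgeR fit without the low-count filter, Lif was called in no comparison, and its log2 ratio between exercised heterozygotes and wild types was 1.15 (SE 0.929, edgeR adjusted p = 0.729). Of 10 other ligands and soluble partners, 2 passed the filter, Ctf1 and Clcf1. Il6, Il11 and Osm, the ligands of Il6ra, of the interleukin-11 receptor and of Osmr, had at most 11, 9 and 19 counts in a whole group.

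Ctf1 encodes cardiotrophin-1, a ligand of Lifr made in myocytes. It had 17.63 to 18.79 CPM in heterozygotes and 22.96 to 26.92 CPM in wild types at 6 months with regular activity, without overlap (18.2 ± 0.501 against 24.8 ± 1.42 CPM, log2 ratio -0.45, SE 0.151). The difference was not called over all genes (edgeR adjusted p = 0.332) but was by limma-voom (-0.43, adjusted p = 0.0227) and in the fit of these 10 libraries (-0.42, edgeR adjusted p = 0.0273). Exercised heterozygotes and wild types overlapped, at 12.95 to 22.35 against 14.44 to 25.35 CPM (log2 ratio -0.06, edgeR adjusted p = 0.953).

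Among the other receptors, Il11ra1, which encodes the interleukin-11 receptor, was lower in exercised wild types (30.68 to 44.66 CPM) than in wild types with regular activity (52.09 to 61.19 CPM), with no overlap (log2 ratio -0.61, SE 0.125, 10 of 10 libraries, edgeR adjusted p = 0.00174). In heterozygotes the groups also did not overlap (33.94 to 44.21 against 45.85 to 51.5 CPM) but the difference was not called (-0.29, SE 0.125, edgeR adjusted p = 0.15), and the effects of both genotypes differed by 0.32 (SE 0.177, edgeR adjusted p = 0.999). Cntfr and Il27ra were called in no comparison by edgeR, while DESeq2 called Il27ra higher in heterozygotes at 6 than at 3 months (1.99, adjusted p = 0.0146) and limma-voom called it lower in exercised than in regular-activity heterozygotes (-1.39, adjusted p = 0.0406). The list of other receptors held 3 genes, with 1 called lower and 0 higher with exercise in wild types and 0 in heterozygotes.

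**Figure D3:**
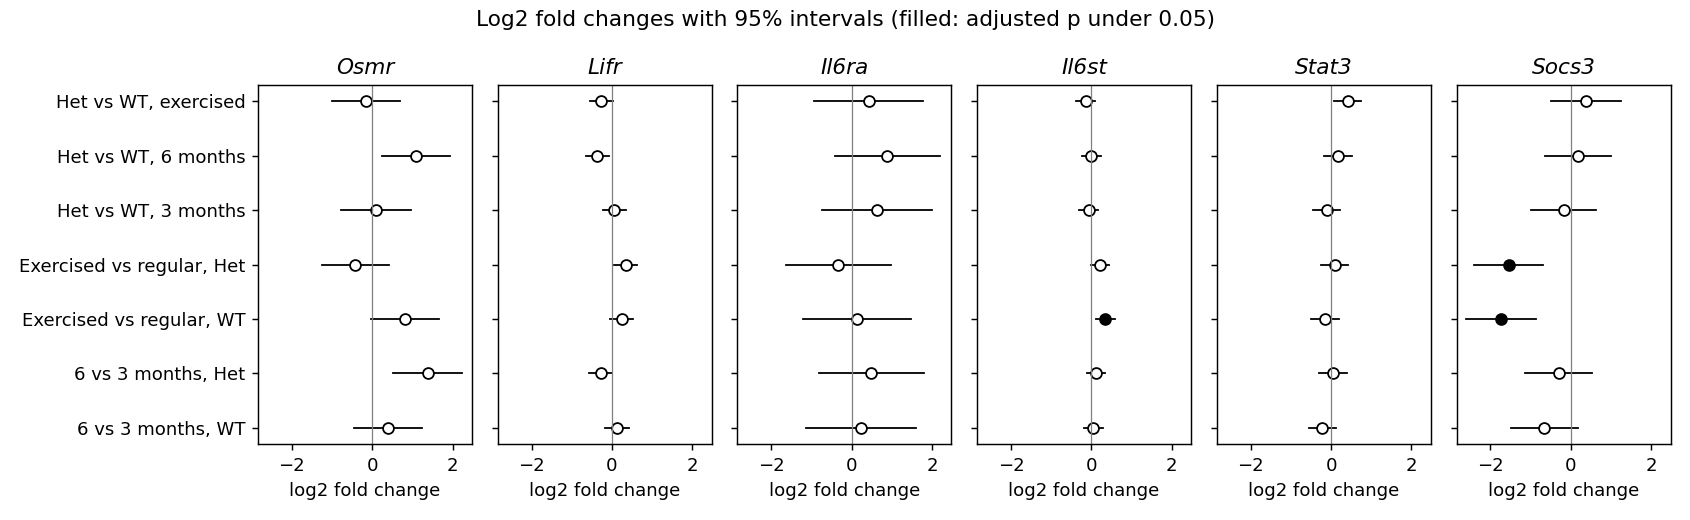
Log2 fold change of the 6 tested members in 7 comparisons (rows; the first-named group is on top of the fold change), with 95% intervals from the edgeR standard error on 24 residual degrees of freedom. Filled points are called, which are Socs3 in both exercise comparisons (-1.54 and -1.73) and Il6st with exercise in wild types (0.35); intervals of Il6ra are wide in every row.

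Stat3 (ENSMUSG00000004040, chromosome 11, 100885098 to 100939540, minus strand), the transcription factor that gp130 activates, was not called in any comparison. Exercised heterozygotes had 196.3, 231.8, 190.5, 230.9 and 195.8 CPM, against 232.6, 142.7, 153.7, 130.8 and 129.1 CPM in exercised wild types. All 5 heterozygotes lay above 4 of the 5 wild types, and wild type 1 had the highest level of the 10 libraries (209 ± 20.5 against 158 ± 43.0 CPM, SD, n = 5 each, log2 ratio 0.41, SE 0.163, 9 of 10 libraries on their side, edgeR adjusted p = 0.365). Without exercised wild type 1 the value was 0.58 (edgeR adjusted p = 0.0692).

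At 6 months with regular activity the Stat3 difference was 0.17 (196 ± 34.6 in heterozygotes against 174 ± 43.0 CPM in wild types, SE 0.163, edgeR adjusted p = 0.841), and at 3 months -0.11 (189 ± 34.6 against 204 ± 32.9 CPM, edgeR adjusted p = 0.851). Exercise values were 0.09 in heterozygotes and -0.15 in wild types (edgeR adjusted p = 0.817 and 0.683), and 95% intervals of both lay within -0.49 to 0.43. The transcript of Stat3 does not report phosphorylation of its protein, which was not measured here. Stat3 shares 72 exonic bases with Stat5a on the other strand. Most like Stat3 over the 30 libraries was Slc39a14 (Pearson r 0.75), which encodes a zinc and iron importer, and on deviations from group means Slc39a14 (0.799) and Mt1 (0.777), encoding a metallothionein and itself on the list of known Stat3 targets.

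Among 10 kinases, adaptors and other STATs, Jak1, the Janus kinase on which gp130 signalling most depends, was lower in exercised heterozygotes (113.9 to 153.5 CPM) than in exercised wild types (177 to 229.3 CPM). The libraries did not overlap (132 ± 15.9 against 201 ± 19.1 CPM, SD, n = 5 each, 1.53-fold, log2 ratio -0.61, SE 0.124, 10 of 10 libraries, edgeR adjusted p = 0.014). It was the only pathway gene called between genotypes in the edgeR fit of all libraries, and the call was lost without exercised heterozygote 4 (-0.56, edgeR adjusted p = 0.0647), without exercised wild type 4 (-0.57, 0.0613) and with only these 10 libraries (-0.61, edgeR adjusted p = 0.0611). In heterozygotes of the other sampling points Jak1 was also below wild type, by values that edgeR did not call. They were -0.37 at 6 months (regular activity, SE 0.124, edgeR adjusted p = 0.331) and -0.32 at 3 months (edgeR adjusted p = 0.32). The difference at 6 months was called by limma-voom (-0.40, adjusted p = 0.0349).

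With exercise in wild types, Jak1 rose (201 ± 19.1 against 145 ± 33.8 CPM, log2 ratio 0.47, SE 0.124, edgeR adjusted p = 0.0135) and so did Ptpn11, which encodes the gp130-bound phosphatase SHP2 (262 ± 39.5 against 194 ± 29.0 CPM, 0.44, SE 0.143, edgeR adjusted p = 0.0463). In heterozygotes Ptpn11 rose by a similar amount (278 ± 79.4 against 203 ± 17.3 CPM, 0.46, SE 0.143, edgeR adjusted p = 0.0385) and so did Gab1, the docking protein that SHP2 binds (112 ± 18.8 against 77.7 ± 5.18 CPM, 0.53, SE 0.115, edgeR adjusted p = 0.00314). In each genotype edgeR thus called 2 of the 10 genes higher and 0 lower with exercise, where 5.34% of all genes were called higher in heterozygotes and 4.64% in wild types. Tyk2, another Janus kinase, was called lower with exercise by limma-voom (-0.42 in both, adjusted p = 0.0343 in heterozygotes and 0.031 in wild types). DESeq2 called it lower in heterozygotes (-0.44, adjusted p = 0.0365). The Jak1 call was lost without wild type 4 (edgeR adjusted p = 0.0603) or 5 (0.0532) with regular activity. Each Ptpn11 call held in 2 of 10 fits that each left out 1 library. In heterozygotes these were the fits without exercised heterozygote 2 and without heterozygote 1 with regular activity, and the other 8 gave 0.26 to 0.48 (edgeR adjusted p of 0.0557 to 0.192). In wild types these were the fits without exercised wild type 5 and without wild type 4 with regular activity, and the other 8 gave 0.38 to 0.43 (edgeR adjusted p of 0.0649 to 0.128). Without exercised heterozygote 4 and exercised wild type 1 the Ptpn11 value in heterozygotes was 0.24 (edgeR adjusted p = 0.236). Without wild types 2 and 5 with regular activity the Ptpn11 value in wild types was 0.34 (edgeR adjusted p = 0.301).

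Socs3 (ENSMUSG00000053113, chromosome 11, 117966079 to 117970047, minus strand), the feedback inhibitor, carried the largest change of the members. Exercised heterozygotes had 5.777, 19.22, 14.82, 16.91 and 16.54 CPM, against 67.78, 39.94, 24.39, 42.06 and 38.83 CPM in heterozygotes with regular activity. The highest exercised library, at 19.22 CPM, lay below the lowest with regular activity, at 24.39 CPM. The difference was called (14.7 ± 5.2 against 42.6 ± 15.7 CPM, SD, n = 5 each, 2.90-fold lower, log2 ratio -1.54, SE 0.415, 9 of 10 libraries on their side of the midpoint, edgeR adjusted p = 0.0204). In this comparison 8.82% of all genes were called, 5.34% higher and 3.48% lower, and 1 of the 6 members. Without heterozygote 1 with regular activity it was -1.31 and not called (edgeR adjusted p = 0.0626).

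Exercised wild types had 14.16, 8.352, 11.56, 3.996 and 19.1 CPM of Socs3, against 28.32, 63.85, 28.79, 25.44 and 42.05 CPM in wild types with regular activity. These groups were also apart, and 10 of 10 libraries lay on their own side of the midpoint (11.4 ± 5.72 against 37.7 ± 16.0 CPM, SD, n = 5 each, 3.32-fold lower, log2 ratio -1.73, SE 0.42, edgeR adjusted p = 0.00908). The call held in all 10 fits that each left out 1 library (-1.99 to -1.46, highest edgeR adjusted p = 0.035). Without both wild types 2 and 5, which held Xist and Y-linked transcripts together and had the highest Socs3 of their group, it was -1.28 and not called (edgeR adjusted p = 0.106), and the groups still did not overlap.

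The exercise effects of both genotypes on Socs3 differed by 0.19 (SE 0.579, edgeR adjusted p = 0.999), with a 95% interval of -1 to 1.38 that is too wide to show that they were alike. Genotype itself made no called difference to Socs3, with log2 ratios of 0.37 in exercised mice (SE 0.42, edgeR adjusted p = 0.873), 0.18 at 6 months (SE 0.40, 0.951) and -0.18 at 3 months (SE 0.399, 0.907). At 3 months heterozygotes had 49.83, 37.67, 66.65, 31.93 and 76.4 CPM and wild types 63.23, 115.5, 57.55, 31.59 and 29.94 CPM, which overlap with the 6-month libraries of regular activity (6 minus 3 months -0.30, SE 0.40, in heterozygotes and -0.66, SE 0.401, in wild types, edgeR adjusted p = 0.745 and 0.533). In the order of group means the step from wild types with regular activity at 6 months to exercised heterozygotes was the only one beyond the larger SD of its neighbours.

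Values that moved with the Socs3 change were the mitochondrial share, the small noncoding RNA share and the spike-in pattern given above, and their part in it was not tested. With mitochondrial genes and the 10 most abundant others removed before scaling, the Socs3 values were -1.55 in heterozygotes (edgeR adjusted p = 0.0189) and -1.71 in wild types (0.00922). Without the exercised libraries of most macrophage transcripts they were -1.62 (edgeR adjusted p = 0.0283) and -1.82 (0.0157). The macrophage markers, which are on average lower in exercised than in regular-activity heterozygotes for all 11 tested, had 6 of 11 on average higher in exercised wild types. Exercise and the handling of the exercised set of libraries cannot be told apart for this gene.

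The RefSeq promoter windows (250 bases before to 50 after the start, GRCm38.p6) of Socs3, of Junb, the gene most like it below, and of Osmr are shown because a STAT binding motif is central to how Stat3 reaches Socs3. Capitals mark a match to TTCNNNGAA (STAT motif) or TGANTCA (AP-1 motif), searched on both strands. The windows are chr11:117969317-117969616 (Socs3, minus strand), chr8:84978699-84978998 (Junb, minus strand) and chr15:6874264-6874563 (Osmr, minus strand). The windows of Socs3, Osmr and Lifr lie inside the gene spans given above, so their RefSeq starts are not the annotated gene starts.
Socs3: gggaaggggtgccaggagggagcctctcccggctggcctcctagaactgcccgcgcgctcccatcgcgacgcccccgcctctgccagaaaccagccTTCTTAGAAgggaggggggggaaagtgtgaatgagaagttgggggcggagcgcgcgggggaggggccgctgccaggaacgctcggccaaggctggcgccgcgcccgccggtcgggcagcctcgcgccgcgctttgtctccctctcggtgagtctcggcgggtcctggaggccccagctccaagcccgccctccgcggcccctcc
Junb: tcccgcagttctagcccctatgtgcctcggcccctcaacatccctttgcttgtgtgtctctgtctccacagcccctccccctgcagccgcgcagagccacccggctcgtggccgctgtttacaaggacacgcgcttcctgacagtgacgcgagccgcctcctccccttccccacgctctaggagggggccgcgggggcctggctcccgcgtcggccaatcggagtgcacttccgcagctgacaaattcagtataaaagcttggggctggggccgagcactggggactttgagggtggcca
Osmr: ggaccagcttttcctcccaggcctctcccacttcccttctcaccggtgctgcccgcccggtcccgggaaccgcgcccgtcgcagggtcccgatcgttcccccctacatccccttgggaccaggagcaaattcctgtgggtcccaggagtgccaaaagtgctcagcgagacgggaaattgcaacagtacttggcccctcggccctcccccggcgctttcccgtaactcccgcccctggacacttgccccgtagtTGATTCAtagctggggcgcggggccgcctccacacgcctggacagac
The Socs3 window holds TTCTTAGAA, which begins 154 bases before the RefSeq start. This match lies inside the annotated gene, downstream of the annotated gene start at 117970047 on the minus strand. No other window of a member holds TTCNNNGAA, a motif that 8.3% of 32851 RefSeq windows hold. The Osmr window holds TGATTCA just after the start and the Lif window TGACTCA 228 bases before it, while 7.81% of all windows hold TGANTCA. TGACGTCA, the cyclic AMP response motif, was in none of the 7 members' windows and in 1.79% of all. Junb had none of these 3 motifs in its window. A match describes letters only, and no binding was measured.

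Over the 30 libraries the genes most like Socs3 were Junb (Pearson r 0.856), Rack1 (0.856), Ier2 (0.842), Hist1h3e (0.833) and Mfsd12 (0.822), and on deviations from group means Trappc8 (0.674) led and Junb ranked 5 (0.637). The libraries share their sets and exercise status, which enter the first of these measures. Junb encodes an AP-1 subunit and is a known Stat3 target, and Ier2 is an immediate early gene. Junb had 46.06 to 72.93 CPM in exercised heterozygotes against 137.1 to 210 CPM in heterozygotes with regular activity (log2 ratio -1.55, SE 0.178, edgeR adjusted p = 1.87e-06), and 61.97 to 111.4 against 177.7 to 305.4 CPM in wild types (-1.62, SE 0.178, edgeR adjusted p = 1.45e-06).

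**Figure D4:**
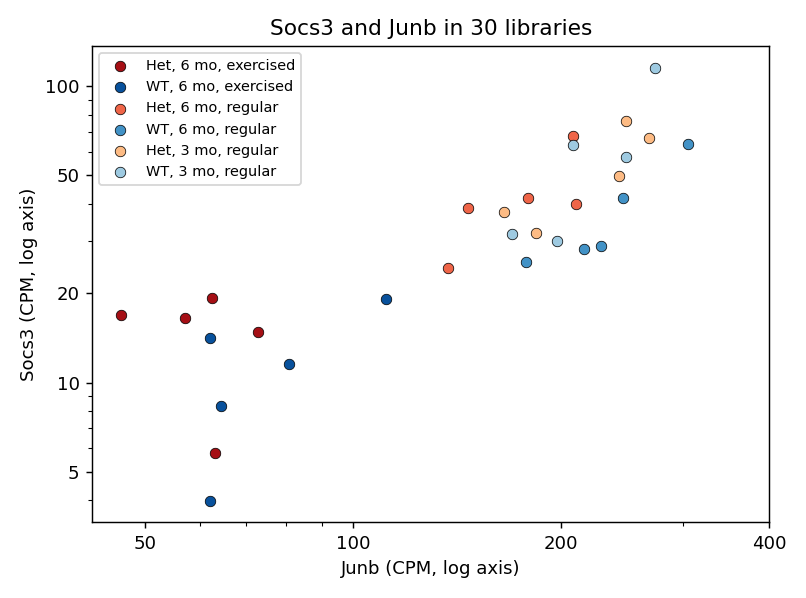
Socs3 against Junb, both in CPM on log axes, with 1 point per library coloured by group. The exercised libraries of both genotypes (Junb 46.06 to 111.4 CPM, Socs3 3.996 to 19.22 CPM) lie apart from all libraries with regular activity, which have at least 137.1 CPM of Junb and 24.39 CPM of Socs3.

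Of 26 known Stat3 target genes, Socs3 aside, 24 were tested. With exercise edgeR called 3 lower and 0 higher in heterozygotes (median log2 difference -0.42, against -0.004 over all genes). In wild types it called 3 lower and 0 higher (-0.18, against 0.006). Over all genes 3.48% were called lower in heterozygotes and 5.05% in wild types. Junb and Gadd45g, a stress-induced growth arrest gene, were among the 3 in both genotypes, and for both genes the groups did not overlap. Gadd45g had 12.37 to 21.99 CPM in exercised heterozygotes against 35.59 to 66.32 CPM in those with regular activity (-1.51, SE 0.22, edgeR adjusted p = 5.61e-05), and 11.04 to 28.79 CPM in exercised wild types against 52.21 to 85.93 CPM in those with regular activity (-1.61, SE 0.219, edgeR adjusted p = 2.57e-05). The others were Irf1, an interferon-responsive transcription factor, in heterozygotes (7.13 ± 2.97 against 14.4 ± 4.37 CPM, -1.02, SE 0.311, edgeR adjusted p = 0.0367) and Cebpb, a transcription factor of the acute phase, in wild types (39.1 ± 11.9 against 96.9 ± 32.8 CPM, -1.31, SE 0.392, edgeR adjusted p = 0.0334). The Irf1 call held in 4 and the Cebpb call in 3 of 10 fits that each left out 1 library. Irf1 was lost without exercised heterozygote 1, 2, 4 or 5 or heterozygote 2 or 3 with regular activity (edgeR adjusted p of 0.0592 to 0.118), and Cebpb without exercised wild type 2, 3, 4 or 5 or wild type 2, 4 or 5 with regular activity (0.0514 to 0.0922). Without wild types 2 and 5 with regular activity together, which held Xist and Y-linked transcripts, Cebpb was -0.95 (edgeR adjusted p = 0.267). Without exercised heterozygote 4 and exercised wild type 1, Irf1 was -0.96 (edgeR adjusted p = 0.0586). DESeq2 called 5 of the 24 targets in each genotype, and limma-voom 7 in heterozygotes and 6 in wild types, in either direction. Over all genes, in either direction, DESeq2 called 1790 in heterozygotes and 1910 in wild types. The alternatives called at most 2835 and 2769. Mcl1, another target on the list, was called higher with exercise in both genotypes by DESeq2 and by limma-voom. Its DESeq2 values were 0.25 (adjusted p = 0.0325) in heterozygotes and 0.26 (0.018) in wild types. By limma-voom they were 0.29 (adjusted p = 0.00591) and 0.27 (0.0091).

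Timp1, which encodes a metalloproteinase inhibitor and is induced by oncostatin M in other cell types, was the target that edgeR called higher with age in heterozygotes. Timp1 had 3.105 to 16.89 CPM in heterozygotes at 6 months with regular activity, against 0.8819 to 2.133 CPM in heterozygotes at 3 months (log2 ratio 2.30, SE 0.571, edgeR adjusted p = 0.0215, called) and against 0.503 to 2.595 CPM in wild types of the same age (2.59, SE 0.573, edgeR adjusted p = 0.0555). Between genotypes at that age DESeq2 (2.63, adjusted p = 0.00122) and limma-voom (2.58, adjusted p = 0.00788) called it. The groups did not overlap in either comparison, and the macrophage and fibroblast markers given with Osmr were higher in the same groups, a part that was not tested. The age call was lost without heterozygote 1 at 6 months (1.58, edgeR adjusted p = 0.115) and without heterozygote 3 (2.20, 0.0557) or 5 (2.24, 0.0503) at 3 months, and without both 3-month heterozygotes of high small RNA share (2.26, 0.0636). Of the 24 tested targets edgeR called 1 between 6 and 3 months in heterozygotes, where 3.43% of all genes were called, and 0 in wild types, where 0.86% were. At an unadjusted p under 0.05 there were 7 in heterozygotes and 3 in wild types, where 3052 and 1908 of all 15587 genes were. In heterozygotes DESeq2 called 2 targets, among them Serpina3n, an acute-phase protease inhibitor (3.02, adjusted p = 0.0287), and limma-voom called 4, while in wild types each called 1. Over all genes DESeq2 called 982 between ages in heterozygotes and 328 in wild types. Between genotypes edgeR called 0 targets at each sampling point, with 3 in exercised mice, 4 at 6 months and 3 at 3 months at an unadjusted p under 0.05. Of all 15587 genes, 1525, 1370 and 1722 were under that p, in the same order. Over all genes DESeq2 called 203, 62 and 145, again in that order. It called 1 target at each sampling point, and limma-voom 1 at 6 months, 1 at 3 months and 0 in exercised mice. At 3 months both called Bcl6 lower in heterozygotes (DESeq2 -0.92, adjusted p = 0.0093, limma-voom -0.96, adjusted p = 0.0467). Its libraries did not overlap there (14.8 ± 4.44 CPM in heterozygotes against 27.9 ± 3.43 CPM in wild types, edgeR adjusted p = 0.0621). Of 7 other negative regulators edgeR called 0 in each comparison, with 0 or 1 at an unadjusted p under 0.05. Over the comparisons 765 to 3556 of all 15587 genes were under that p. Both DESeq2 and limma-voom called Socs2 lower with exercise in wild types (-0.64, adjusted p = 0.0326, and -0.67, adjusted p = 0.0201). Socs1 had a log2 ratio of -1.56 with exercise in heterozygotes (0.526 ± 0.112 against 1.57 ± 0.665 CPM, SE 0.551, edgeR adjusted p = 0.0737), at low counts.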

How the data were processed

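Total RNA of cardiac myocytes was sequenced, and the authors deposited whole-number read counts per gene, not normalized. Trim Galore, HISAT2, featureCounts and mm10 are named in the submitters' processing notes, whose versions and strand setting are not given in the sources used here. Groups came from the sample labels. Spike-in entries (23) were left out, and 26 symbols that had become dates were restored from gene IDs. Genes were filtered with filterByExpr (15587 of 52550 kept), scaled by TMM and tested in 1 edgeR quasi-likelihood fit of all 30 libraries (24 residual degrees of freedom, edgeR 4.0.16, R 4.3.3) with Benjamini-Hochberg adjustment over all genes in each of 9 comparisons. Log2 CPM used a prior count of 2. DESeq2 1.42.0, limma 3.58.1 (voom with quality weights), other scalings and left-out libraries were alternatives. On simulated data for genotype at 6 months with regular activity (15587 genes), 41.8%, 67.2% and 98.5% of genes changed by 1.5-, 2- and 4-fold were recovered, with 11 false calls among 15027 unchanged genes. The changed genes were drawn from those with a mean of at least 1 in log2 CPM, a level that Il6ra does not reach. No outlying library was simulated. The text names all 7 members, the pathway genes called in the edgeR fit of all libraries, and some others of small p or called by another tool. It also names genes among the 5 most like a member. The members and lists were chosen with earlier results of these data known. Libraries of 11232143 to 23710331 counts limit Lif and Il6ra most.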

Additional observations from a re-analysis of the deposited data

Results flagged for a closer look

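Of the 42 sets of 5 libraries that 7 genes in 6 groups give, 8 held a library whose gap to its nearest neighbour exceeded 0.71 of the range of the set, and chance flags about 1 set in 20. Exercised heterozygote 4 was the highest of its group for 3 genes, with 26.25 CPM of Osmr against 11.96 in the next library, 273.3 CPM of Il6st against 224.9, and 2.069 CPM of Il6ra against 0.6293. It was also the only library of its group with Xist (223 CPM) and hardly any Y-linked transcripts (0.0591 CPM), and the part of sex was not tested. Exercised wild type 1 was the highest of its group for Osmr (39.42 CPM, next 10.8) and Stat3 (232.6 CPM, next 153.7). In heterozygotes at 6 months with regular activity, library 2 was high in Il6st (253 CPM, next 195.7) and library 1 low in Il6ra (0.5504 CPM, next 0.8984). Heterozygote 5 at 3 months was high in Lifr (117.4 CPM, next 88.51).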

How the results depend on the processing

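Over all alternatives 1114 values of single members were recomputed, of which 11 lost a call and 8 gained one. The sign changed in 34 (at 2 decimals, 0.00 having no sign), over 17 of 54 member and comparison pairs. None of these was called before or after, and 30 moved by less than 1 SE of the value reported. The other 4 were the genotype difference in exercised mice, for Il6ra -0.46 by limma-voom, -0.62 without exercised heterozygote 4 and -0.33 without the exercised libraries of most macrophage transcripts, and for Osmr 0.59 without exercised wild type 1. In the edgeR fit of all libraries 1 member was called with exercise in heterozygotes (Socs3), 2 in wild types (Socs3 and Il6st) and 0 between genotypes or ages. In wild types with exercise 1 was called without the low-count filter and 1 with only the groups compared (Socs3 in both), and 0 without the libraries that held both Xist and Y-linked transcripts, an alternative chosen after seeing the data. In heterozygotes with exercise 2 were called by limma-voom (Socs3 and Lifr), and 2 (Socs3 and Osmr) without the exercised libraries of most macrophage transcripts, also chosen after seeing the data. Between genotypes at 6 months with regular activity 1 was called (Osmr) by limma-voom and with only the groups compared. Between 6 and 3 months in heterozygotes 1 was called (Osmr) by DESeq2, by limma-voom and with only the groups compared. Leaving out 1 library at a time gave 0 to 1 with exercise in heterozygotes, 1 to 2 in wild types and 0 to 1 with age in heterozygotes. The cause of these changes was not tested.

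With the replicate block the counts of members called did not change, and Socs3 was -1.54 in heterozygotes (edgeR adjusted p = 0.0229) and -1.72 in wild types (0.011), with Il6st at 0.36 (0.0421). With this block the exercise calls of Cebpb in wild types (0.062) and Ptpn11 in heterozygotes (0.059) were lost, and without the low-count filter those of Cebpb (0.0627), Irf1 (0.114) and Ptpn11 in both genotypes (0.0646 in heterozygotes and 0.056 in wild types). Correlations of same-numbered libraries were -0.25 to 0.15, so the numbers were not taken to pair samples. Over all genes, 1375 were called with exercise in heterozygotes (816 to 2835 over the alternatives) and 1511 in wild types (642 to 2769). Between genotypes there were 63 in exercised mice (13 to 203), 21 at 6 months (4 to 476) and 30 at 3 months (0 to 145), and between ages 534 in heterozygotes (181 to 1367) and 134 in wild types (32 to 328). Interactions gave 2 for exercise (0 to 13) and 0 for age (0 to 25, the highest by DESeq2). The depth limits Lif and Il6ra, which had at most 14 and 35 counts in a library.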
